A study of Mus musculus with 6 samples.

Results

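The autophagy machinery is described here as 37 protein-coding rows of a mouse liver expression table that holds 54532 genes, 22046 of them protein-coding. They are the rows whose symbol begins with Atg and a digit, together with 18 named genes for kinases, membrane factors, ubiquitin-like modifiers and cargo receptors of the pathway. The livers came from G3bp1-HKO mice, in which G3bp1 was deleted in hepatocytes only (HKO, 3 libraries), and from G3bp1-Flox litter controls (Flox, 3 libraries). Mice of both groups were 6 weeks old when a high-fat diet began and ate it for 12 weeks. The labels do not name the Cre driver, other liver cells keep G3bp1 in this design, and which exons were removed is not stated in the sources read. The labels do not tie each library to a mouse of its own. The p-values here therefore reflect variation among these libraries, part or all of which may be technical. The study asked how G3BP1, a stress granule protein that binds RNA, affects non-alcoholic steatohepatitis.

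Autophagy encloses cytoplasm in a double membrane and delivers it to lysosomes. The ULK kinase complex starts the process, a class III phosphatidylinositol 3-kinase marks the membrane, and ATG9 vesicles and the lipid transfer protein ATG2 supply lipid. Ubiquitin-like conjugation then attaches proteins of the ATG8 family (LC3 and GABARAP) to the growing membrane, where cargo receptors such as p62 bind them. In hepatocytes the pathway is known for its activity in fasting, for turnover of mitochondria and lipid droplets, and for the build-up of p62 when it is blocked. These data measure transcripts, not autophagic flux, and many steps of the pathway are set after transcription.

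Levels are FPKM, fragments scaled by gene length and by a size factor for each library. The gene length counts all annotated exon bases of most members (7065 for Becn1, for example). Levels therefore compare only roughly between genes. The 6 libraries held 15804115 to 17954066 reads assigned to genes. G3bp1 stood at 8.46, 8.46 and 9.10 FPKM (Flox 1, 2 and 3) against 4.66, 4.27 and 4.44 (HKO 1, 2 and 3), lower in every HKO library than in any Flox library (log2 difference -0.83, adjusted p = 0.110, limma over all genes). The 8 hepatocyte markers were all present, with a summed level of 45618 to 47141 FPKM in Flox and 39123 to 49119 in HKO. Of 11856 genes tested, 1 passed at an adjusted p under 0.05 (0.00843%), and 904 (7.62%) had an unadjusted p under 0.05. Each log2 difference is the HKO mean of log2(FPKM + 1) less the Flox mean, and so is smaller than the true change for genes of low level.

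No autophagy gene passed the test. Of the 37 members 35 were tested, and each of these 35 was at or above the filter of 0.5 FPKM in all 6 libraries. Of the 35, 0 passed, against 0.00843% of all genes tested, and 0 had an unadjusted p under 0.05, against 7.62% of all genes. With limma's voom on recovered reads 0 passed and 1 had an unadjusted p under 0.05. The smallest adjusted p was 0.651, that of Sqstm1. Differences were small: 16 members lay within 0.1 of 0 on the log2 scale, and the extremes were -0.34 (Atg101) and 0.24 (Atg9a). The 95% interval of every one of the 35 lay between -1 and 1, and that of 26 lay between -0.5 and 0.5. A difference of 1 on the log2(FPKM + 1) scale thus lay outside all 35 intervals. For scarce members that scale compresses a change, so this is not the same bound on their FPKM. The difference of Atg16l2, for example, was 0.20 here and 0.40 with a pseudocount of 0.1. The mean of log2(FPKM + 1), on which every count of lower and higher genes here rests, was lower in HKO for 22 members and higher for 13, or 62.9% lower against 51.2% of all genes tested. By mean FPKM the counts were 21 and 14, since Atg4c, at a log2 difference of -3.2e-05, had the higher mean FPKM in HKO. Under TPM, which rescales each library to 1 common sum, 7 members were lower and 28 higher, where the median of all genes was 0.15 and 3023 of the 11856 genes were lower. The median log2 difference was -0.047 over the members and -0.0054 over all genes tested. Values within a group were close, with a median coefficient of variation of 10.5% in Flox and 10.4% in HKO over the members, against 13.7% and 13.6% over all genes tested.

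**Figure D1:**
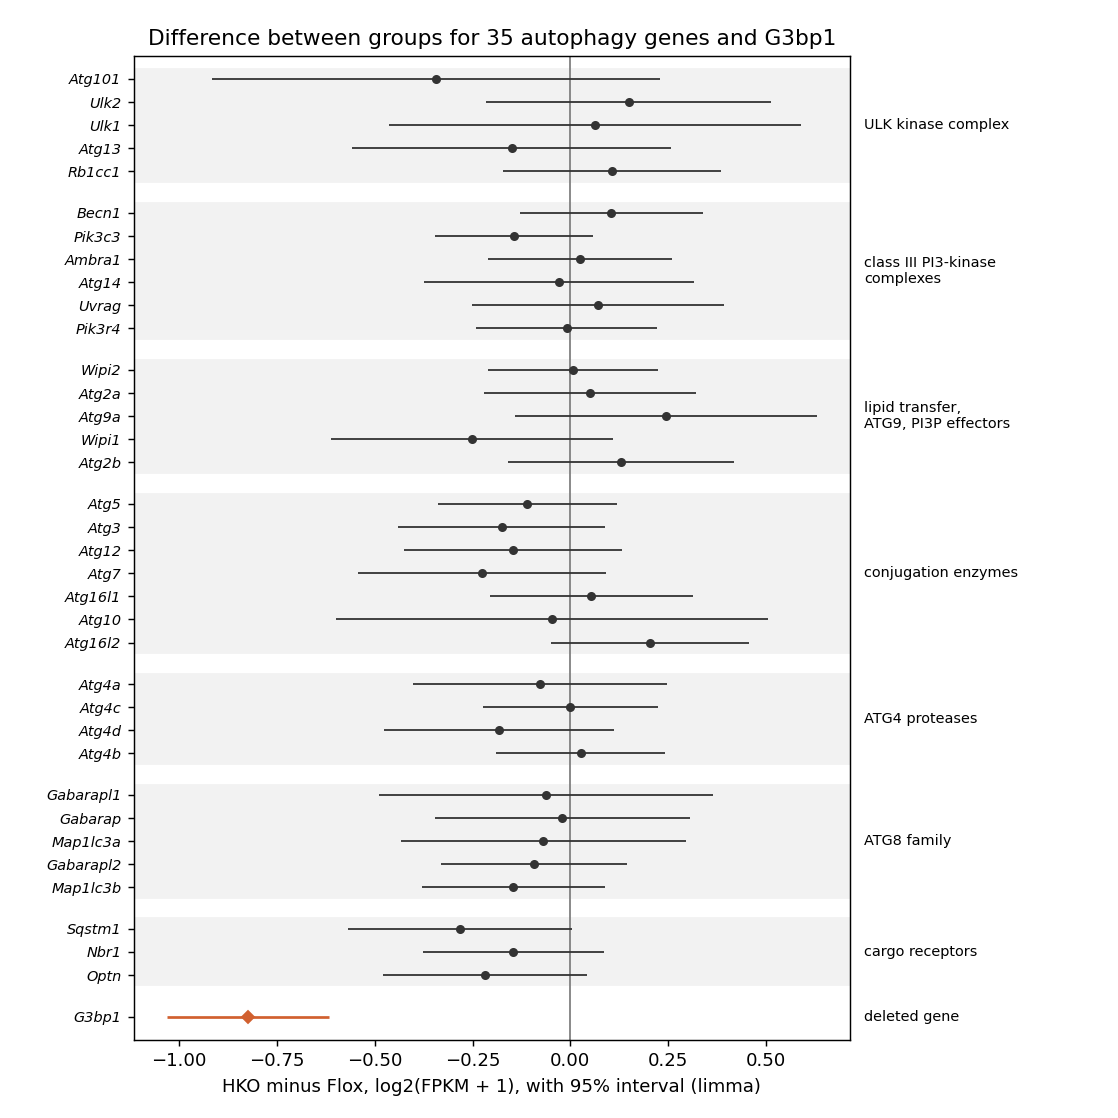
Difference of log2(FPKM + 1), HKO minus Flox (horizontal axis) of the 35 tested autophagy genes, grouped by role, and for G3bp1 (diamond). Points are limma estimates and bars are 95% intervals over 3 against 3 libraries; every autophagy interval crosses 0, and that of G3bp1 does not.

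Expression of the pathway in liver spanned a wide range. Means over the 6 libraries ran from 0.839 FPKM (Atg16l2) to 156 FPKM (Gabarapl1) among tested members. The members above 100 FPKM were Gabarapl1, Gabarap and Sqstm1, another 12 lay between 10 and 100, and 20 tested members lay under 10. The 5 ATG8 genes alone made up 44.9% to 51.6% of the summed FPKM of the members in a library, and the 3 cargo receptors 21.2% to 24.8%. Among the enzymes and scaffolds that act upstream the highest were Atg101, Atg5 and Atg3.

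**Figure D2:**
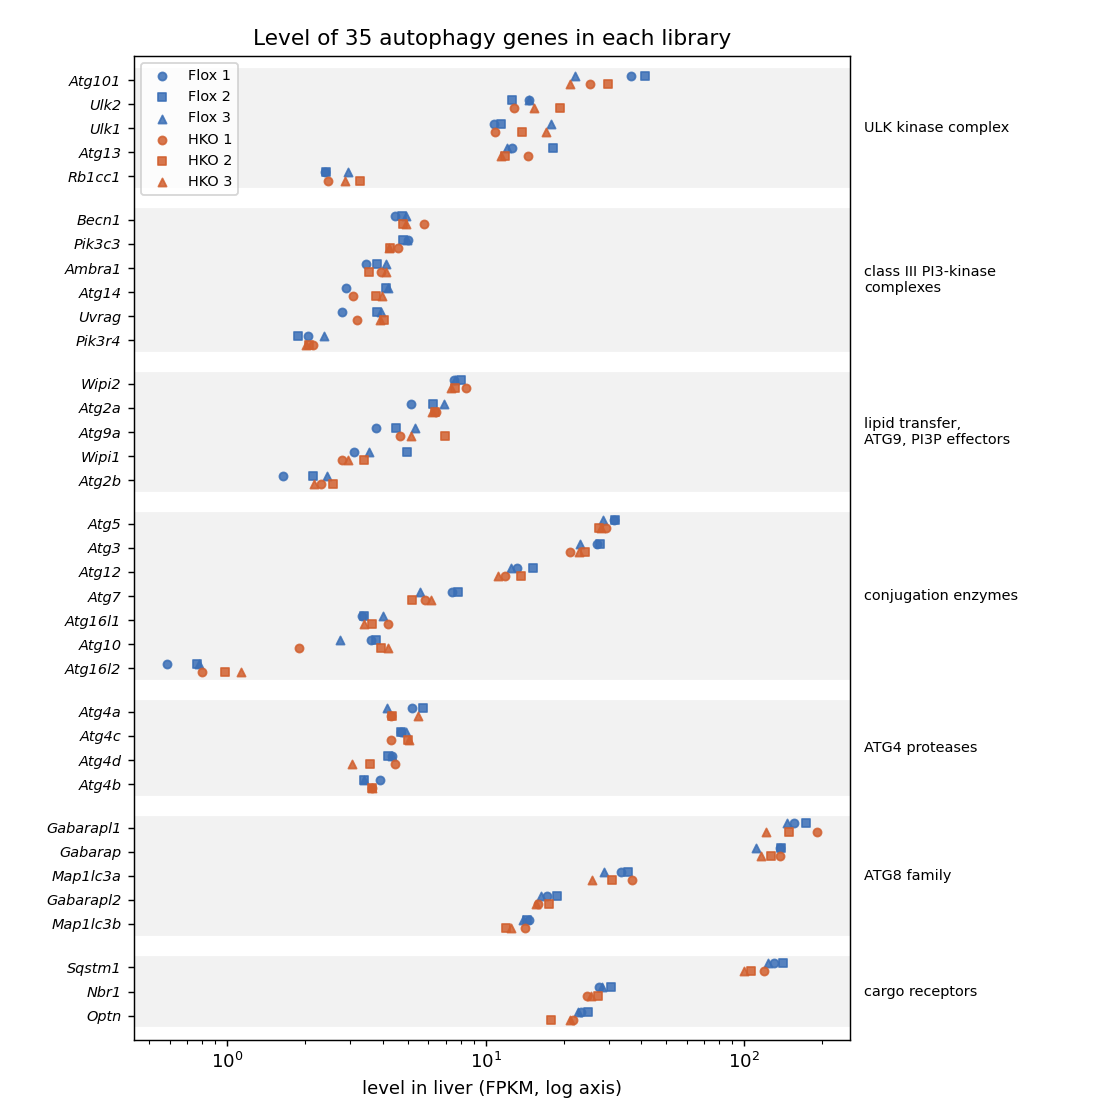
Level of each of the 35 tested autophagy genes in each library (FPKM, log axis), with Flox libraries in blue and HKO libraries in orange, grouped by role; marker shape gives the replicate number. Gabarapl1, Gabarap and Sqstm1 lie above 100 FPKM on average, and blue and orange points intermix for most genes.

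The receptors that link cargo to the membrane were the role in which HKO livers lay lowest relative to Flox. All 3 had lower means, all 3 lay below Flox in every library, and 0 passed, in a table where 7.21% of the genes tested lay below in every library. Sqstm1 (ENSMUSG00000015837, chromosome 11, 50199366 to 50210827 on the minus strand, GRCm38) encodes p62, which binds ubiquitinated cargo and KEAP1 and is degraded with its cargo. It stood at 129.9, 142 and 124 FPKM (Flox 1, 2 and 3) against 119, 106 and 100.05 (HKO 1, 2 and 3). The highest HKO liver, HKO 1, lay under the lowest Flox liver, Flox 3. The group values were 132 ± 8.98 FPKM in Flox and 108 ± 9.74 in HKO (SD, n = 3), and 0 lay just inside the interval (log2 difference -0.28 with SE 0.122, 95% interval -0.57 to 0.0048, adjusted p = 0.651). Mrnip on the other strand overlaps 17.3% of the exon bases of Sqstm1, and the library kit does not mark strand. Mrnip was itself 2.78, 3.10 and 1.87 FPKM in Flox and 1.69, 1.62 and 0.926 FPKM in HKO, a small level beside that of Sqstm1.

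Optn, optineurin, a receptor for damaged mitochondria and bacteria, stood at 23.4, 24.9 and 22.7 FPKM (Flox 1, 2 and 3) against 21.7, 17.8 and 21.2 (HKO 1, 2 and 3). HKO 2 was the lowest, and HKO 1 lay closest to the Flox livers (log2 difference -0.22 with SE 0.111, 95% interval -0.48 to 0.042, adjusted p = 0.677). Nbr1, a relative of p62 that also binds ubiquitin and serves in turnover of peroxisomes, stood at 27.3, 30.5 and 28.3 FPKM (Flox 1, 2 and 3) against 24.7, 27.1 and 25.6 (HKO 1, 2 and 3). Flox 1 and HKO 2 nearly touched, and the Nbr1 difference was the smallest of the 3 (log2 difference -0.15 with SE 0.0982, 95% interval -0.38 to 0.086, adjusted p = 0.710). Under TPM all 3 overlapped between groups, with log2 differences of -0.10 for Sqstm1, -0.049 for Optn and 0.028 for Nbr1, where the median of all genes was 0.15. Under quantile normalization Sqstm1 and Optn still lay below without overlap, and Nbr1 overlapped.

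The sequence before the start site of the 2 receptor genes with the larger differences is shown because motifs were searched there. Only the 250 bases before a start site were searched, so a site further away would be missed. Bases are from RefSeq on GRCm38.p6, 5′ to 3′ on the strand of the gene, with GC boxes (GGGCGG on either strand) in capitals. The Sqstm1 stretch is chr11:50210828-50211070 (minus strand) and the Optn stretch is chr2:5064118-5064367 (minus strand). The Sqstm1 stretch ends where the deposited gene model begins, and the model of Optn begins further downstream of its stretch.
Sqstm1: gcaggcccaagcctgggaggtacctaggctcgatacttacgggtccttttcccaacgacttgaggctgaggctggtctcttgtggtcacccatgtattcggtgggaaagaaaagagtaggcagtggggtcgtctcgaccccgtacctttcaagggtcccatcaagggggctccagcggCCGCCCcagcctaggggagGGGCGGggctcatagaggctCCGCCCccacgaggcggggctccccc
Optn: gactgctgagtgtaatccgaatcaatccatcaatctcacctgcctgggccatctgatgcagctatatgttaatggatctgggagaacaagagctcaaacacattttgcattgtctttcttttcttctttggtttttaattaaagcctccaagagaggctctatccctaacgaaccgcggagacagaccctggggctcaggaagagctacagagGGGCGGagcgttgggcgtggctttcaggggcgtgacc
Sqstm1 held 3 GC boxes in its stretch and Optn 1. RefSeq promoter sequences were matched by symbol for 30 of the 37 members, and 19 of the 30 (63.3%) had a GC box in the 250 bases before a start site, against 47.5% of 16497 genes. The GC box was chosen after the letters were seen. All motifs were searched on both strands. The core of the CLEAR element bound by TFEB, a regulator of lysosomal and autophagy genes (TCACGTGA), occurred in 1 of 30 members (3.33%) and 1.19% of all genes. That member was Atg3, shown with the element in capitals at chr16:45158727-45158784 (plus strand).
Atg3: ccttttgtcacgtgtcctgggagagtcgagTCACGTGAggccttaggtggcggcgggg
The E-box CACGTG, which the CLEAR core contains, was found in Atg3, Atg5 and Atg7 (10% of the 30, against 7.83% of all genes). GTAAACA, the letters of a FOXO element, occurred in 0 of 30 members and 3.12% of all genes, and the antioxidant response element core TGACNNNGC, read by NRF2, in Atg13 and Ulk2 (6.67%, against 12.2%). A match is a run of letters, not a binding measurement.

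The ATG8 family, the ubiquitin-like proteins joined to the membrane lipid, held the member of highest level, Gabarapl1, and did not separate the groups. All 5 had a lower mean in HKO (median log2 difference -0.069, and -0.19 to 0.042 with 1 library left out, highest without HKO 3), 0 passed and all 5 overlapped between groups. The sign depended on the scaling, since all 5 had a higher mean in HKO under TPM and 3 of them under quantile normalization. Under TPM the median of the 5 was 0.11, where that of all genes was 0.15. Gabarapl1 stood at 156, 173 and 147 FPKM (Flox 1, 2 and 3) against 191, 149 and 122 (HKO 1, 2 and 3). The highest and the lowest of the 6 values were both HKO livers, HKO 1 and HKO 3 (log2 difference -0.062 with SE 0.181, 95% interval -0.49 to 0.36, adjusted p = 0.927). Gabarap, which favours late steps of autophagosome closure and fusion, stood at 138, 138 and 111 FPKM (Flox 1, 2 and 3) against 137, 127 and 116 (HKO 1, 2 and 3). Flox 3 was the lowest, and the groups spread over the same range (log2 difference -0.021). Map1lc3a stood at 33.2, 35.5 and 28.7 FPKM (Flox 1, 2 and 3) against 36.8, 30.8 and 25.7 (HKO 1, 2 and 3), with HKO 1 highest and HKO 3 lowest, as for Gabarapl1. Map1lc3b, which encodes LC3B, the form most used as a marker of autophagosomes, stood at 14.7, 14.4 and 13.9 FPKM (Flox 1, 2 and 3) against 14.2, 12.0 and 12.5 (HKO 1, 2 and 3). Here HKO 1 lay among the Flox livers and HKO 2 and HKO 3 below them (log2 difference -0.15 with SE 0.0991, 95% interval -0.38 to 0.088, adjusted p = 0.714). Gabarapl2 stood at 15.7 to 18.9 FPKM over the 6 livers, with a log2 difference of -0.092. Map1lc3b and Gabarapl2 have 3 and 2 near-identical copies in the annotation (at least 97% identity over 80% of the shorter transcript), so the split of their reads is uncertain. The most abundant copy, Gm6055 of Map1lc3b, was listed at 4.88 to 7.66 FPKM.

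Enzymes of the 2 conjugation systems had mostly lower means in HKO. Of 7 members 5 were lower and 2 higher (median log2 difference -0.11), and 0 passed. Under TPM the count was 2 lower and 5 higher (median 0.065, where that of all genes was 0.15). Atg5, the partner of ATG12 in the ligase that lipidates LC3, stood at 31.3, 31.7 and 28.5 FPKM (Flox 1, 2 and 3) against 29.1, 27.5 and 27.9 (HKO 1, 2 and 3). HKO 1 reached above Flox 3, so the groups met at their edge (log2 difference -0.11, adjusted p = 0.753). Atg7, the E1-like activating enzyme whose loss in hepatocytes is a standard way to block autophagy, stood at 7.38, 7.81 and 5.58 FPKM (Flox 1, 2 and 3) against 5.84, 5.202 and 6.15 (HKO 1, 2 and 3). Flox 1 and Flox 2 were high, while Flox 3 lay within the HKO range (log2 difference -0.23 with SE 0.135, 95% interval -0.54 to 0.091, adjusted p = 0.688). Atg3, the E2-like enzyme for LC3, had means of 25.9 ± 2.47 and 22.8 ± 1.47 FPKM in Flox and HKO (log2 difference -0.18, adjusted p = 0.701). Atg12, the modifier joined to ATG5, had means of 13.6 ± 1.41 and 12.2 ± 1.31 FPKM (log2 difference -0.15). Atg10, the E2-like enzyme for ATG12, varied widely within HKO, at 3.598, 3.76 and 2.74 FPKM (Flox 1, 2 and 3) against 1.90, 3.94 and 4.18 (HKO 1, 2 and 3), and HKO 1 was the lowest of all on 58 reads. Atg16l1, the scaffold of the ligase, had means of 3.57 ± 0.375 and 3.74 ± 0.417 FPKM and a log2 difference of 0.054.

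Atg16l2, a relative of ATG16L1 that is less well understood, was the 1 member that lay above Flox in every HKO library, where 6.06% of all genes tested did. It stood at 0.584, 0.763 and 0.780 FPKM (Flox 1, 2 and 3) against 0.799, 0.983 and 1.13 (HKO 1, 2 and 3), on 76 to 177 reads per library. HKO 1 lay just above Flox 3, and the widest gap was between Flox 1 and HKO 3 (log2 difference 0.20 with SE 0.107, 95% interval -0.049 to 0.46, adjusted p = 0.685). Atg16l2 was above in every library also under TPM, and overlapped under quantile normalization. Kupffer cell markers had higher means in HKO in 11 of 11 tested genes, and no marker was at 0. Their summed level was 148 to 271 FPKM in Flox and 222 to 362 in HKO, so these sums overlapped between groups. The median log2 difference of the 11 was 0.70. Of them 4 lay above Flox in every HKO library, and 0 passed. Markers of monocyte-derived macrophages summed to 64.5 to 76.9 FPKM in Flox and 82.3 to 101 in HKO, with 4 of 4 tested genes higher and none of the 10 at 0. The median log2 difference of these 4 was 0.43. Of the 4, 3 lay above Flox in every HKO library, and 0 passed. T and NK cell markers summed to 2.26 to 3.41 and 3.62 to 4.49 FPKM, and B and plasma cell markers to 1.98 to 2.84 and 2.87 to 4.12 FPKM. Levels were low, and 3 of 8 T and NK cell markers and 3 of 6 B and plasma cell markers were tested. Of the other marker lists tested, sinusoidal endothelial (27.7 to 36.8 FPKM in Flox, 30.2 to 41.2 in HKO), stellate (53.3 to 63.5 and 54.8 to 63.7), cholangiocyte (3.43 to 4.27 and 3.08 to 4.81) and neutrophil markers (2.36 to 5.90 and 2.49 to 4.08) overlapped between groups, with the neutrophil marker Ly6g at 0. Their part in the difference of Atg16l2, or of any other member, was not tested. In whole liver, more cells of a type and more RNA per cell cannot be told apart.

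**Figure D3:**
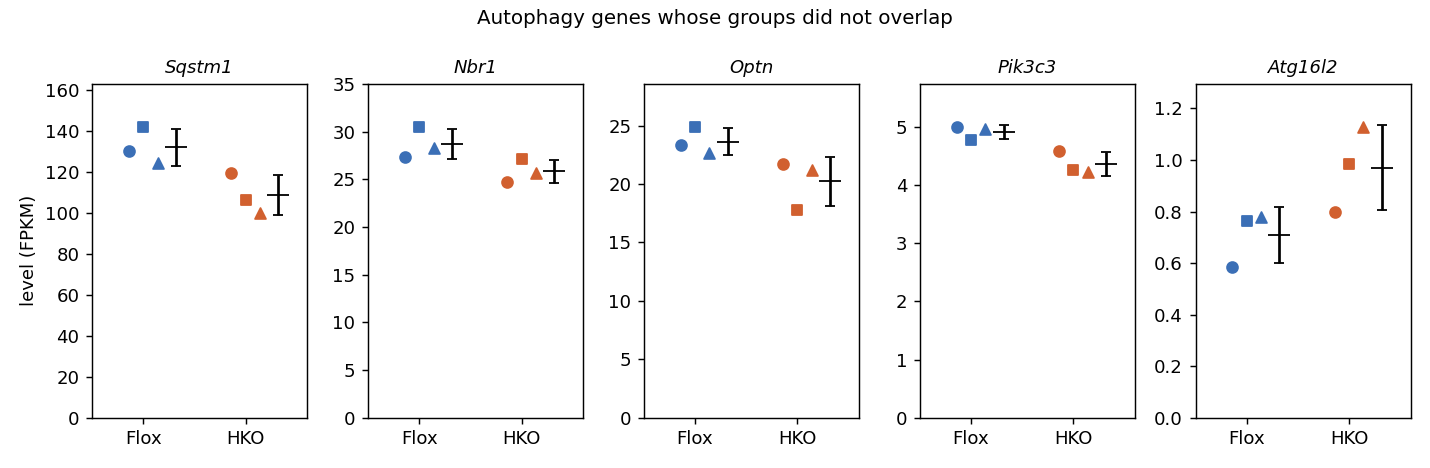
Level (FPKM) of the 5 autophagy genes whose HKO and Flox libraries did not overlap. Coloured symbols are single libraries (marker shape gives the replicate number) and black bars are the mean ± SD of 3 libraries; Sqstm1, Nbr1, Optn and Pik3c3 lie lower in HKO and Atg16l2 lies higher.

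These 5 genes, the 3 receptors with Pik3c3 and Atg16l2, are all the members whose groups did not overlap. They are 14.3% of the 35, and 13.3% of all genes tested did not overlap, so the share is near the background. An exact permutation test of 3 against 3 libraries cannot give a two-sided p under 0.1, so the absence of overlap is a description. Under TPM the members without overlap were Atg16l2, Atg4b and Wipi2, all 3 above Flox. A library left out can only add to such a count. Leaving out Flox 3 raised it to 16 members (37.1% of all genes), leaving out HKO 1 to 12 (31.3%), HKO 2 to 9 (19.2%) and Flox 1 to 8 (18.9%).

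The class III phosphatidylinositol 3-kinase complexes, which make the lipid that recruits later factors, gave no call. Of 6 members 3 were lower and 3 higher (median log2 difference 0.0076, and -0.039 to 0.063 with 1 library left out), and 0 passed. Under TPM 0 were lower and 6 higher (median 0.16). Pik3c3, the catalytic subunit VPS34, stood at 4.997, 4.78 and 4.97 FPKM (Flox 1, 2 and 3) against 4.60, 4.25 and 4.23 (HKO 1, 2 and 3). The Flox livers were tight and HKO 1 was the HKO liver nearest to them (log2 difference -0.14 with SE 0.0860, 95% interval -0.35 to 0.059, adjusted p = 0.688). Under TPM its log2 difference was 0.0042, with the groups overlapping. Becn1, beclin 1, the scaffold subunit, stood at 4.46, 4.77 and 4.94 FPKM (Flox 1, 2 and 3) against 5.75, 4.81 and 4.92 (HKO 1, 2 and 3), and HKO 1 alone lay above the Flox range (log2 difference 0.11 with SE 0.0998, 95% interval -0.13 to 0.34, adjusted p = 0.766). Cntd1 on the other strand overlaps 43.9% of the exon bases of Becn1, and was itself listed at 0 to 0.0488 FPKM. Pik3r4, the kinase-like regulatory subunit VPS15, had means of 2.10 ± 0.251 and 2.08 ± 0.0699 FPKM. Atg14, which directs the complex to sites of autophagosome formation, had means of 3.73 ± 0.741 and 3.61 ± 0.472 FPKM, and Uvrag, which takes its place in the endosomal complex, 3.51 ± 0.627 and 3.72 ± 0.463 FPKM. Ambra1, a beclin-binding adaptor, had means of 3.78 ± 0.335 and 3.86 ± 0.288 FPKM. The log2 differences of these 4 lay between -0.029 and 0.071, and in each of Atg14 and Uvrag Flox 1 was the lowest liver.

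In the ULK kinase complex, which receives signals from mTORC1 and AMPK, 2 members were lower and 3 higher (median log2 difference 0.063), and 0 passed. The median was -0.085 to 0.18 with 1 library left out, lowest without HKO 3, and was also below 0 without Flox 1. Under TPM 1 were lower and 4 higher (median 0.24). Ulk1, the kinase that phosphorylates beclin 1 and ATG13, stood at 10.8, 11.5 and 17.9 FPKM (Flox 1, 2 and 3) against 10.9, 13.8 and 17.04 (HKO 1, 2 and 3). Flox 3 and HKO 3 were the high livers, 1 in each group, and the groups spanned the same range (log2 difference 0.063 with SE 0.224, 95% interval -0.46 to 0.59, adjusted p = 0.941). Ulk2, its paralog, stood at 14.7, 12.7 and 14.7 FPKM (Flox 1, 2 and 3) against 12.8, 19.4 and 15.3 (HKO 1, 2 and 3), with HKO 2 highest, HKO 3 just above Flox and HKO 1 among the Flox livers (log2 difference 0.15, adjusted p = 0.780). Atg101, which stabilises ATG13, had the lowest log2 difference of all members and the widest interval. It stood at 36.6, 41.3 and 22.1 FPKM (Flox 1, 2 and 3) against 25.3, 29.8 and 21.2 (HKO 1, 2 and 3). Flox 1 and Flox 2 were high and Flox 3 lay within the HKO range, so the spread within Flox exceeded the difference between means (log2 difference -0.34 with SE 0.242, 95% interval -0.92 to 0.23, adjusted p = 0.720). Atg13, the adaptor of the kinase, had means of 14.3 ± 3.41 and 12.6 ± 1.70 FPKM, with Flox 2 the highest liver. Rb1cc1, which encodes the scaffold FIP200, had means of 2.58 ± 0.315 and 2.86 ± 0.403 FPKM (log2 difference 0.11).

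Among factors that supply membrane or read the lipid mark, 4 of 5 tested members were higher and 1 lower in HKO (median log2 difference 0.051, and -0.0089 to 0.13 with 1 library left out, lowest without Flox 1), and 0 passed. Under TPM 1 were lower and 4 higher (median 0.22). Atg9a, the scramblase of the vesicles that seed the membrane, had the highest log2 difference of all members. It stood at 3.76, 4.51 and 5.34 FPKM (Flox 1, 2 and 3) against 4.66, 6.97 and 5.14 (HKO 1, 2 and 3). HKO 2 alone lay above the Flox range, and Flox 1 was the lowest (log2 difference 0.24 with SE 0.164, 95% interval -0.14 to 0.63, adjusted p = 0.709). Other genes, mainly Ankzf1 on the other strand, overlap 32.6% of the exon bases of Atg9a, and Ankzf1 was listed at 1.74 to 2.16 FPKM. The lipid transfer genes Atg2a and Atg2b had means of 6.09 ± 0.900 and 6.31 ± 0.111 FPKM and of 2.07 ± 0.4005 and 2.35 ± 0.198 FPKM in Flox and HKO. Both had their lowest value in Flox 1. The 2 WIPI genes encode proteins that bind the lipid mark and recruit ATG2 or ATG16L1. Wipi1 stood at 3.08, 4.95 and 3.55 FPKM (Flox 1, 2 and 3) against 2.79, 3.40 and 2.94 (HKO 1, 2 and 3), with Flox 2 far above the other livers (log2 difference -0.25 with SE 0.153, 95% interval -0.61 to 0.11, adjusted p = 0.688). Wipi2 was nearly level at 7.72 ± 0.259 and 7.77 ± 0.548 FPKM (log2 difference 0.0070, 95% interval -0.21 to 0.22).

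The ATG4 proteases, which trim ATG8 proteins before they are joined to lipid and free them afterwards, lay close together in the 2 groups. Of 4 members 3 were lower and 1 higher (median log2 difference -0.038), and 0 passed. Under TPM 1 were lower and 3 higher (median 0.12). Atg4b, the most active form toward LC3, had means of 3.56 ± 0.308 and 3.64 ± 0.00938 FPKM, and Atg4c 4.77 ± 0.126 and 4.78 ± 0.429 FPKM. Atg4c was counted as lower at a log2 difference of -3.2e-05, with an interval of -0.22 to 0.22. Atg4a had means of 5.02 ± 0.808 and 4.70 ± 0.670 FPKM (log2 difference -0.077). Atg4d had means of 4.29 ± 0.0756 and 3.70 ± 0.716 FPKM, with HKO 3 and HKO 2 below Flox and HKO 1 above it (log2 difference -0.18, adjusted p = 0.715), and Kri1 on the other strand overlaps 19.3% of its exon bases.

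The 2 members that were not tested lay near 0. Atg9b, a second ATG9 gene, had 0, 3 and 1 reads in the Flox livers and 1, 5 and 1 in the HKO livers. Atg4a-ps, a row marked as protein-coding that is up to 99.3% identical to Atg4a, had 4, 1 and 1 reads and 0, 1 and 3 reads. At such counts a difference was not detectable, since 0 reads in a library can arise from an expected count of up to 3, for counting error only.

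**Figure D4:**
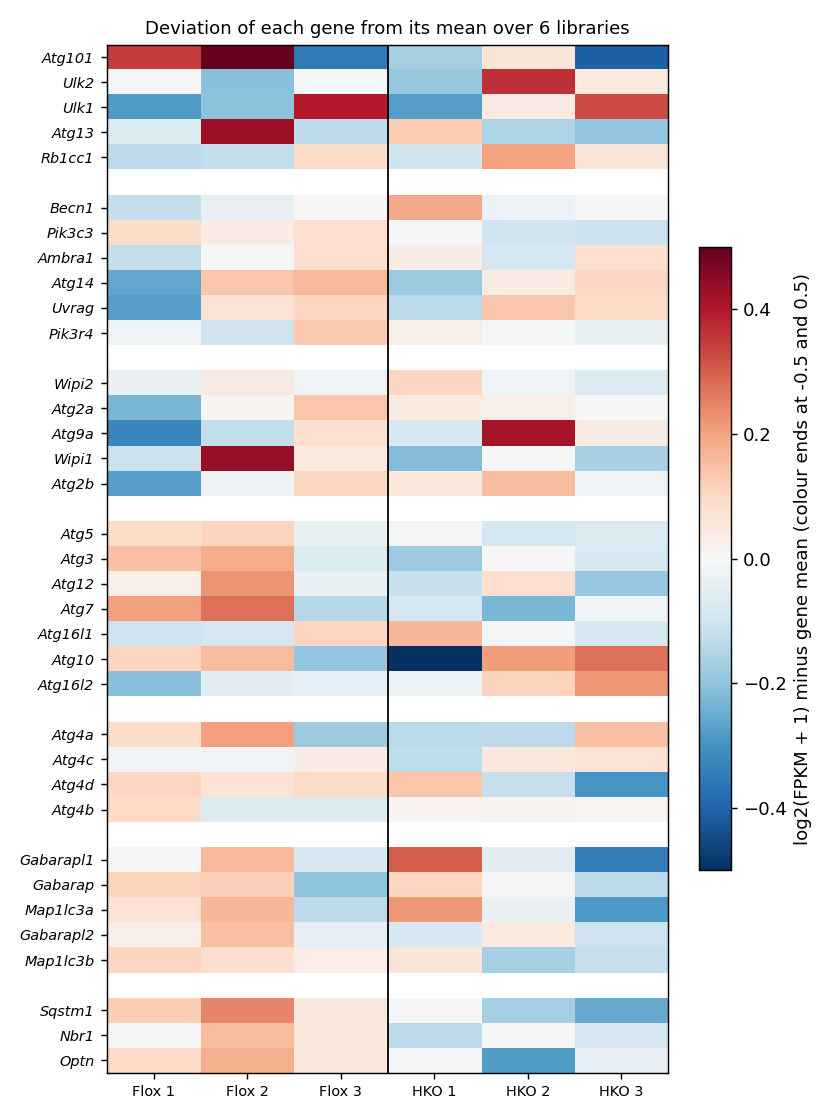
Deviation of each tested autophagy gene from its own mean over the 6 libraries on the log2(FPKM + 1) scale, by library (columns) and gene (rows, in blocks by role); red is above and blue below the gene mean. The block of cargo receptors at the bottom is red or near 0 in the 3 Flox columns and blue or near 0 in the HKO columns; the 2 values beyond range are Atg101 in Flox 2 and Atg10 in HKO 1.

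The livers differed in how many members they held at an extreme. Flox 2 was the highest liver for 13 of the 35 tested members and the lowest for 2. Flox 1 was the lowest for 11 and HKO 3 for 10. The number of members above their own mean was 18, 23 and 19 in the Flox livers and 14, 15 and 13 in the HKO livers. The summed level of the 37 members was 763, 821 and 706 FPKM in Flox and 766, 711 and 647 in HKO, so the groups overlapped. The summed level of the 3 receptors was 181, 197 and 175 FPKM against 166, 151 and 147.

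The sign of the difference went with gene length among the members, and less closely with level. Of the 17 tested members with a gene length under 5000 bases, 17 had a lower mean of log2(FPKM + 1) in HKO (16 by mean FPKM, Atg4c being the exception), while of the 18 longer ones 5 were lower and 13 higher. Over all genes tested 59.1% of the shorter and 36.6% of the longer genes were lower, the same direction as among the members. The shortest member with a higher mean was Atg9a at 5762 bases, and the longer members with a lower mean were Nbr1, Atg7, Atg4d, Map1lc3b and Pik3r4. By level, 13 of 15 members of at least 10 FPKM were lower (86.7%, against 64.3% of all genes at that level), and 9 of 20 below it (45%, against 46.2%). With both splits at once, 11 of 11 shorter members at 10 FPKM or more and 6 of 6 under it were lower. Of the longer members 2 of 4 and 3 of 14 were lower. Over all genes tested the shares were 68% and 54.4% for shorter genes, and 47.8% and 34.7% for longer ones. Both splits were chosen after the values were seen. With the trend of each library over gene length removed, 20 members were lower and 15 higher, where 50% of all genes were lower, and 0 passed. All 5 members without overlap between groups kept their side in that fit, with log2 differences of -0.25 for Sqstm1, -0.18 for Nbr1, -0.20 for Optn, -0.14 for Pik3c3 and 0.15 for Atg16l2. Atg5 also lay below without overlap there, at -0.051, which made 6 of 35 (14.4% of all genes).

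**Figure D5:**
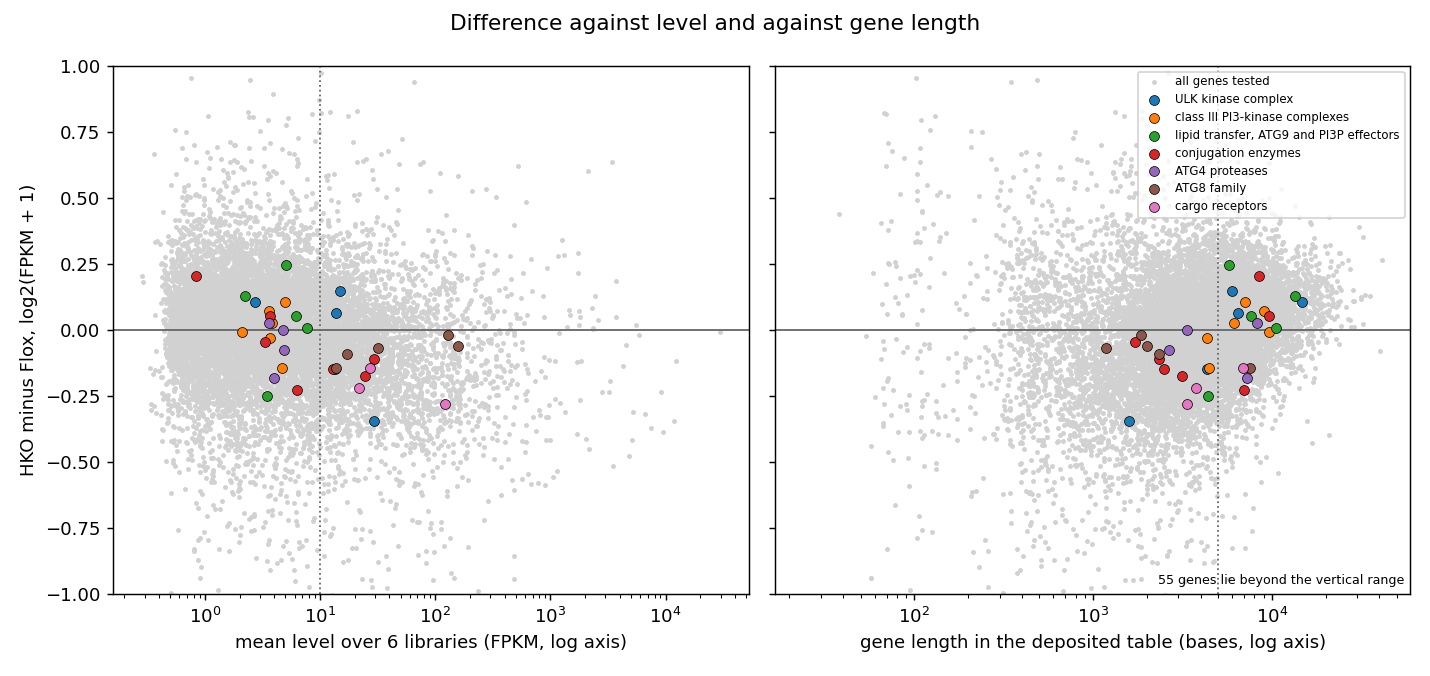
Difference of log2(FPKM + 1), HKO minus Flox, against mean level (left, FPKM) and against gene length (right, bases), both on log axes, for all genes tested (grey) and the autophagy genes coloured by role. Dotted lines mark 10 FPKM and 5000 bases; every autophagy gene left of the length line lies below 0, or at it in the case of Atg4c, and 55 genes of the table lie beyond the vertical range.

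Genes around the machinery, in lists set up from textbook roles with earlier results of these data known, also gave no call in limma. Over all genes tested 13.3% did not overlap between groups, 6.06% above and 7.21% below Flox, and 7.62% had an unadjusted limma p under 0.05. Under TPM the median of all genes was 0.15. For other selective receptors, 9 were lower and 8 higher in HKO among 17 tested (median log2 difference -0.034), and 0 passed, while under TPM 3 were lower and 14 higher (median 0.14). The median was -0.064 to 0.033 with 1 library left out, highest without HKO 1, and 1 gene had an unadjusted p under 0.05. Tollip and Rtn3 lay above Flox in every HKO library, with log2 differences of 0.14 and 0.090, and Calcoco1 and Bnip3 below. Calcoco1, a receptor for ER and Golgi turnover, stood at 5.88, 7.003 and 5.62 FPKM (Flox 1, 2 and 3) against 5.17, 4.50 and 4.58 (HKO 1, 2 and 3), without overlap (log2 difference -0.31, adjusted p = 0.648). Bnip3, a receptor on mitochondria, stood at 43.3, 45.2 and 51.7 FPKM (Flox 1, 2 and 3) against 41.4, 35.6 and 40.8 (HKO 1, 2 and 3), likewise without overlap (log2 difference -0.24, adjusted p = 0.669). For other early factors, 7 were lower and 3 higher in HKO among 10 tested (median log2 difference -0.098), and 0 passed, while under TPM 2 were lower and 8 higher (median 0.059). The median was -0.11 to -0.028 with 1 library left out, nearest 0 without Flox 2, and Rubcn alone did not overlap, below Flox (log2 difference -0.11). Its smallest p-values were those of Bcl2l1 and Mcl1, which encode inhibitors of cell death that also bind beclin 1, at 9.78 ± 2.28 and 7.57 ± 1.26 FPKM and at 36.1 ± 2.84 and 31.4 ± 2.12 FPKM. Among genes of fusion with the lysosome, 11 were lower and 5 higher in HKO among 16 tested (median log2 difference -0.034), and 0 passed, while under TPM 3 were lower and 13 higher (median 0.12). Ykt6, a SNARE of autophagosomes, stood at 18.5, 18.5 and 19.4 FPKM (Flox 1, 2 and 3) against 25.0, 24.8 and 21.4 (HKO 1, 2 and 3), above Flox in every HKO liver (log2 difference 0.32, adjusted p = 0.648), and Vps33a, of the HOPS tether, at 5.49 ± 0.793 and 6.51 ± 0.304 FPKM. Tecpr1 lay below Flox in every HKO library (log2 difference -0.087).

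In the list of nutrient kinases and mTORC1 regulators, 14 were lower and 12 higher in HKO among 26 tested (median log2 difference -0.050), and 0 passed, while under TPM 7 were lower and 19 higher (median 0.12). Here 3 of the 26 genes had an unadjusted limma p under 0.05, against 7.62% of all genes tested. Groups did not overlap for 6 of the 26, against 13.3% of all genes. Rptor and Mlst8 lay above Flox (log2 differences 0.13 and 0.21), and Rheb, Prkab1, Flcn and Fnip1 below (-0.16 for Rheb and -0.35 for Prkab1). Flcn, folliculin, which acts on RAG GTPases and through them on TFEB, stood at 8.72, 9.32 and 7.78 FPKM (Flox 1, 2 and 3) against 6.25, 5.50 and 5.39 (HKO 1, 2 and 3). Every HKO liver lay below every Flox liver (log2 difference -0.52 with SE 0.105, 95% interval -0.76 to -0.27, adjusted p = 0.580). Its partner Fnip1 stood at 6.22, 6.79 and 5.98 FPKM (Flox 1, 2 and 3) against 4.03, 5.13 and 4.79 (HKO 1, 2 and 3), also without overlap (log2 difference -0.38 with SE 0.109, 95% interval -0.64 to -0.12, adjusted p = 0.613). Among transcription factors of autophagy genes, 5 were lower and 10 higher in HKO among 15 tested (median log2 difference 0.026), and 0 passed, while under TPM 1 were lower and 14 higher (median 0.18). Foxo1 had means of 2.99 ± 0.366 and 3.81 ± 0.697 FPKM and Creb1 0.987 ± 0.0911 and 1.32 ± 0.244 FPKM. For lysosomal membrane and hydrolase genes, 6 were lower and 12 higher in HKO among 18 tested (median log2 difference 0.020), and 0 passed, while under TPM 1 were lower and 17 higher (median 0.20). Hexa, a hexosaminidase subunit, stood at 22.9, 25.5 and 23.5 FPKM (Flox 1, 2 and 3) against 31.6, 26.7 and 32.7 (HKO 1, 2 and 3), above Flox in every HKO liver (log2 difference 0.32, adjusted p = 0.648), and Gla, an alpha-galactosidase, had means of 2.36 ± 0.256 and 1.88 ± 0.289 FPKM. Atp6v1h lay below Flox in every HKO library (log2 difference -0.13). The median of this list was -0.010 to 0.048 with 1 library left out, lowest without HKO 1. In the KEAP1-NRF2 list, to which p62 is tied because it binds KEAP1, 4 were lower and 4 higher in HKO among 8 tested (median log2 difference -0.020), and 0 passed, while under TPM 2 were lower and 6 higher (median 0.15). Nqo1, a standard NRF2 target, stood at 5.45, 4.12 and 4.87 FPKM (Flox 1, 2 and 3) against 2.87, 2.51 and 3.51 (HKO 1, 2 and 3), without overlap (log2 difference -0.55 with SE 0.134, 95% interval -0.87 to -0.24, adjusted p = 0.580), and Gclc had means of 105 ± 20.9 and 88.3 ± 16.0 FPKM. Gclm also lay below without overlap (log2 difference -0.094), and the median of the list was -0.083 to 0.072 with 1 library left out. Genes of these lists outside the 2 of smallest p were named after their values were seen. Under TPM Flcn, Fnip1 and Nqo1 kept their sign at -0.39, -0.25 and -0.47. Gclm, Rubcn and Atp6v1h changed sign, to 0.083, 0.024 and 0.023.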

How the data were processed

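The authors deposited 1 table of FPKM for 6 liver libraries, with gene lengths and no pooled columns. The submitters' processing notes name GRCm38 and mm10, while neither aligner, counter nor annotation release was given in the sources used here. Total RNA (1.3 µg) entered an unstranded NEBNext Ultra library, per the labels' protocols. FPKM times length was a whole multiple of 1 step for 100% of values above 0 (within 0.02 reads), which gave reads per gene, and the library size behind the FPKM was proportional to the size factor by median ratio. The deposited FPKM were thus already levelled between libraries.

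Log2(FPKM + 1) was tested with limma 3.58.1 in R 4.3.3 (trend, robust, two-sided, Benjamini-Hochberg over all genes reaching 0.5 FPKM in 3 or more libraries, threshold 0.05). The fit was tested on simulated data with the real gene means and spreads over 11856 genes. It recovered 72% of 100 genes changed by 1 on the log2 scale and 91% of 100 changed by 2, with 9 false calls. These rates hold for data with that many changed genes, since an adjusted p also depends on how many other genes have small p-values. Only 1 gene passed in the real data, and G3bp1, at a log2 difference of -0.83, had an adjusted p of 0.110 in limma. The rates may therefore overstate the power to call a changed member here. Exon overlaps and copies (blastn 2.17.0) used GENCODE release M21, which holds 99.8% of the table's identifiers. All members were named, and up to 2 genes of smallest p in each other list. The members, roles and lists were chosen with earlier results of these data known. Alternatives were a pseudocount of 0.1, no filter, a mean of at least 5 FPKM, TPM, quantile normalization, voom on recovered reads, the replicate number as a block, each library left out, and a removal of length trends chosen after seeing the data. The labels name no batch.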

Additional observations from a re-analysis of the deposited data

How the results depend on the processing

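No autophagy gene passed under any of the 14 alternatives, and the smallest adjusted p of a member was 0.257, without Flox 3. Over the whole table the number of genes that passed was 1, against 0 with no filter, 0 with the replicate block, 2 at a mean of at least 5 FPKM, 3 with voom on recovered reads and 0 to 13 with 1 library left out (13 without HKO 1). G3bp1 passed with voom on recovered reads (log2 difference -0.95, adjusted p = 0.0455, with 0.0455 to 0.838 over the alternatives), and in no other alternative. The count of members with a lower mean was 14 of 19 at a mean of at least 5 FPKM and 7 of 35 under TPM, which shifts the median of all genes by 0.15. Relative to that median 20 members were lower under TPM. The median log2 difference was -0.11 at that mean, 0.12 under TPM and -0.13 to -0.00014 with 1 library left out. Groups did not overlap for 5 members, against 3 at a mean of at least 5 FPKM, 3 under TPM, 3 under quantile normalization and 5 to 16 with 1 library left out. The direction held for 13 members in every alternative in which they were tested, 7 lower (Atg101, Wipi1, Atg3, Atg7, Atg4d, Sqstm1 and Optn) and 6 higher (Ulk2, Rb1cc1, Becn1, Atg9a, Atg2b and Atg16l2). Of these, Wipi1, Atg4d, Rb1cc1, Becn1, Atg2b and Atg16l2 have means under 5 FPKM and were not tested with that filter. Log2 differences that changed sign under TPM were Atg13 0.019, Pik3c3 0.0042, Atg14 0.13, Pik3r4 0.14, Atg5 0.065, Atg12 0.021, Atg10 0.096, Atg4a 0.080, Atg4c 0.16, Gabarapl1 0.12, Gabarap 0.16, Map1lc3a 0.11, Gabarapl2 0.079, Map1lc3b 0.022, Nbr1 0.028. Under quantile normalization they were Atg4c 0.014, Gabarapl1 0.052, Gabarap 0.096, Map1lc3a 0.019. With voom it was Atg4c 0.0070. With length trends removed they were Wipi2 -0.059, Atg16l1 -0.0055, Atg10 0.029, Atg4c 0.029, Atg4b -0.022, Gabarapl1 0.0047, Gabarap 0.051, Map1lc3a 0.022. Signs that changed with 1 library left out had ranges of Ulk1 -0.085 to 0.28, Atg13 -0.25 to 0.027, Ambra1 -0.028 to 0.073, Atg14 -0.17 to 0.056, Uvrag -0.049 to 0.15, Pik3r4 -0.062 to 0.053, Wipi2 -0.042 to 0.045, Atg2a -0.050 to 0.13, Atg16l1 -0.015 to 0.12, Atg10 -0.20 to 0.22, Atg4a -0.19 to 0.0068, Atg4c -0.036 to 0.063, Atg4b -0.0011 to 0.082, Gabarapl1 -0.23 to 0.095, Gabarap -0.13 to 0.042, Map1lc3a -0.19 to 0.057.

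The replicate number is not stated to pair mice, so it was not taken as a pairing. Correlations of deviations over genes were 0.021, 0.015 and 0.070 for same-numbered libraries of the 2 groups. For differently numbered ones they ran from -0.100 to 0.074. Deviations from a group mean of 3 libraries are tied to each other, so these values cannot exclude a pairing. The replicate block changed no member's call, with 22 lower and 0 past the threshold. Reads limit Atg10, Atg16l2 and the 2 untested members most.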

Other observations

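The division of the members by gene length differed between livers of 1 group as well as between groups. The median deviation of the 17 members under 5000 bases from their own means was 0.09, 0.17 and -0.04 on the log2 scale in Flox 1, Flox 2 and Flox 3. In HKO 1, HKO 2 and HKO 3 it was -0.08, -0.0039 and -0.11. For the 18 longer members it was -0.11, -0.03 and 0.08 in the Flox livers and 0.02, 0.0064 and 1.0e-04 in the HKO livers. Over all genes tested, Flox 1, Flox 2 and HKO 1 had shorter genes above their means (0.04, 0.06 and 0.02) and longer genes below (-0.05, -0.05 and -0.03), and Flox 3, HKO 2 and HKO 3 had the opposite. HKO 1 thus sided with Flox 1 and Flox 2 over the whole table, while the median of its short autophagy genes was -0.08. Not all of these lay low there: Gabarapl1 (2013 bases) and Map1lc3a (1181 bases) were highest in HKO 1.

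Flcn and Fnip1, whose products form 1 complex, both lay below Flox in every HKO liver. So did Nqo1, Gclm and Sqstm1, genes tied to NRF2, where 7.21% of all genes tested lay below. Under TPM the log2 differences were -0.47 for Nqo1, 0.083 for Gclm and -0.10 for Sqstm1, and Sqstm1 overlapped between groups. The median of all genes was 0.15 under TPM. In the KEAP1-NRF2 list, which does not hold Sqstm1, 4 genes were lower and 4 higher, and under TPM 2 and 6. In the nutrient list 14 were lower and 12 higher. None of Flcn, Fnip1, Nqo1, Gclm and Sqstm1 passed over all genes (adjusted p = 0.58, 0.613, 0.58, 0.779 and 0.651 in limma). They were pointed out after their values were seen.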
